A study of Rattus norvegicus with 12 samples.

Results

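The potassium channel genes are the rows of the deposited count table whose gene name begins with Kcn, 89 of the 30560 genes listed. Of these, 68 had at least 10 reads over the 12 rats and were tested, among 18182 genes tested in all. They fall into 37 genes for voltage-gated pore-forming subunits (26 tested), 12 for auxiliary subunits of voltage-gated channels (10 tested), 14 for inward rectifiers (11 tested), 14 for two-pore channels (10 tested) and 12 for calcium- and sodium-activated channels with their subunits (11 tested). Potassium channels let potassium leave the cardiomyocyte and so end each action potential. Transient outward channels shape its early phase, delayed rectifiers repolarise the cell, and inward rectifiers hold the resting potential. ATP-sensitive channels couple excitability to energy supply, two-pore channels carry a background current, and calcium-activated channels of large conductance are best known in vascular smooth muscle.

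RNA was sequenced from formalin-fixed, paraffin-embedded sections of the left ventricle, with the atria removed, from male Wistar rats operated at 7 weeks of age. Sham rats (n = 4) had the chest opened without a suture and received vehicle (0.5% carboxymethylcellulose). MI rats (n = 4) had a permanent ligation of the left anterior descending coronary artery, which causes myocardial infarction, and received the same vehicle. MI + UA rats (n = 4) had the same ligation and received urolithin A (UA), a gut microbial metabolite that induces mitophagy, at 50 mg/ml by daily gavage over 8 weeks, and the sources used here differ on the dose and on when dosing began. The sections could hold infarct scar as well as surviving muscle, and in such bulk tissue fewer cells of a type and less RNA per cell cannot be told apart. Rat 66 is MI + UA by its label but stands among vehicle-treated MI rats in a supplementary list of the study. Calls lost with this rat counted in MI are given with the results, and so are some of the values that changed.

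Each library was one rat and held between 6228706 and 19031695 reads on genes, of which 50.2% to 58.6% fell on 13 mitochondrial genes. Of the reads counted, the part assigned to genes was 46.9% to 48.3% in Sham, 43.3% to 44.8% in MI and 42.9% to 47.2% in MI + UA, so that Sham and MI did not overlap. All 6 cardiomyocyte markers examined (Myh6, Tnnt2, Tnni3, Ryr2, Myl2 and Actc1) were detected, and their summed level was 13826.5 to 16981.4 CPM in Sham, 9874 to 10604.0 CPM in MI and 10348 to 12540.6 CPM in MI + UA. CPM are counts scaled to the reads on genes of each library, after trimmed mean of M-values (TMM) normalisation. Between MI and Sham, 5 of these 6 markers were called lower, 5 of 7 fibroblast markers, 5 of 7 macrophage markers, 4 of 7 mural cell markers and 1 of 4 Schwann cell markers were called higher, and 1 of 5 endothelial markers was called lower. None of the markers tested of T cells (4 genes), atrial muscle (4) or adipocytes (2 of 4) was called.

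In MI versus Sham, 18 of the 68 tested potassium channel genes (26.5%) passed edgeR's quasi-likelihood test at a Benjamini-Hochberg adjusted p under 0.05, against 11.4% of all genes tested. Of these, 12 were lower in MI (17.6%, against 5.53% of all genes) and 6 were higher (8.82%, against 5.82%). The 12 lower members were lower on the CPM scale, but 9 of them turned slightly higher when counted relative to the 6 summed cardiomyocyte markers, and none did relative to the 5 markers other than Myh6. Among the lower members were subunits of the transient outward, delayed rectifier, inward rectifier, ATP-sensitive and background channels of heart muscle: Kcnip2, Kcnd2, Kcnd3, Kcna2, Kcnh2, Kcnq1, Kcng2, Kcnj2, Kcnj3, Kcnj11, Kcnk2 and Kcnk3. The higher members were Kcna6, Kcnv2, Kcne4, Kcnk6, Kcnma1 and Kcnt2. MI and Sham rats did not overlap at 17 of the 68 genes (25.0%), against 15.7% of all genes tested. Calls of 8 members held under each of 19 other settings, namely those of Kcnj3, Kcnip2, Kcnd3, Kcnh2, Kcnk2, Kcna6, Kcnma1 and Kcnv2. Without rat 61 of MI the count fell to 9 members, and without rat 32 or rat 38 of Sham it fell to 11. The calls of Kcna2, Kcnd2, Kcne4, Kcng2, Kcnj2, Kcnk3, Kcnk6, Kcnq1 and Kcnt2 were lost without rat 61, and those of Kcnd2, Kcng2, Kcnj2, Kcnj11, Kcnk3, Kcnq1 and Kcnt2 without either Sham rat.

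**Figure D1:**
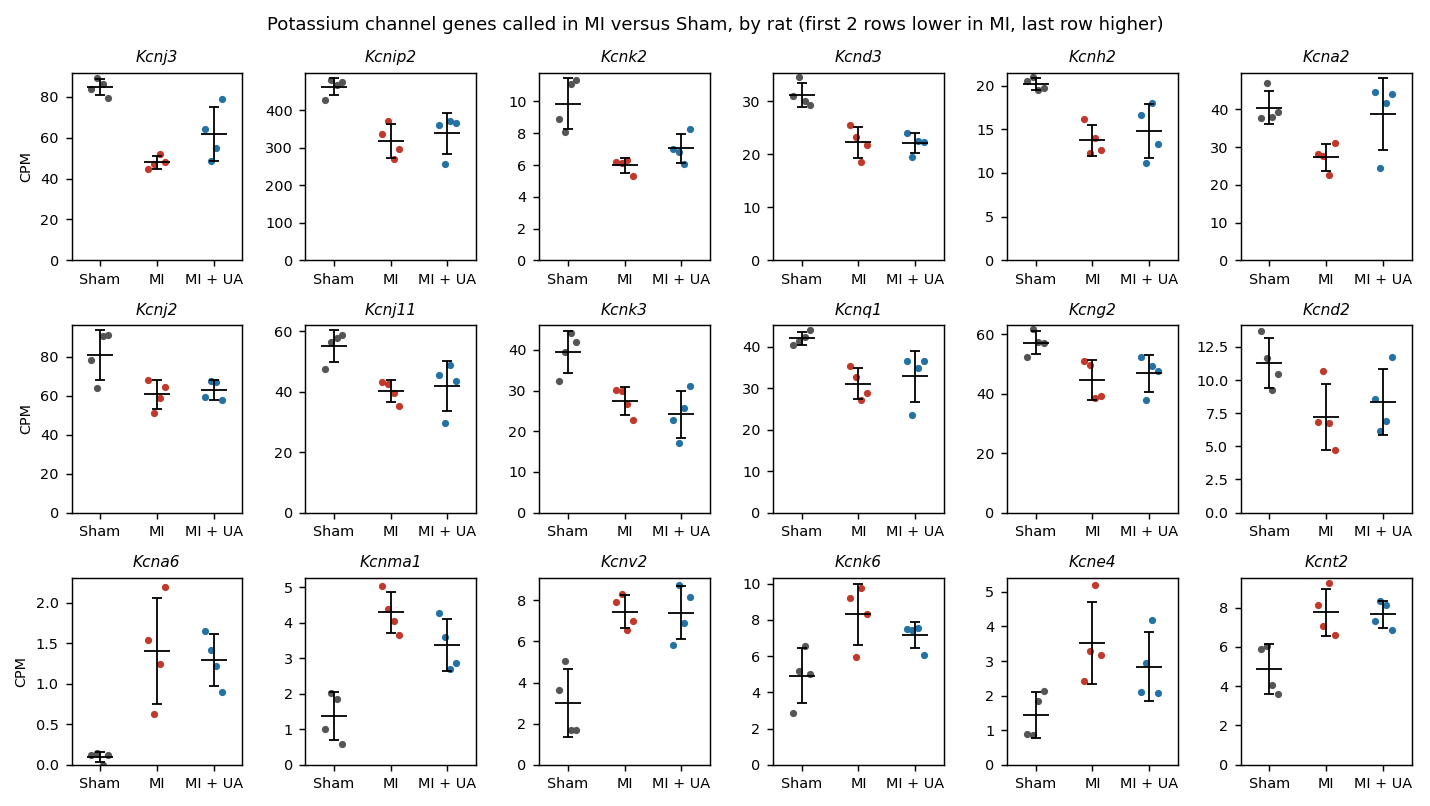
Levels (CPM, y axes from 0) of the 18 members called in MI versus Sham in each of the 12 rats. Points are rats, and the horizontal mark and bar give the mean and SD of 4 rats. The 12 genes of the first rows lie lower in MI than in Sham in CPM (relative to the 6 summed cardiomyocyte markers 9 of them turn the other way, and relative to the 5 without Myh6 none does), and the 6 of the last row lie higher.

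Members called lower were mostly those with many reads. Of 16 members with a mean over all rats of at least 10 CPM, 10 were called lower and none higher, and 15 had a negative log2 fold change, with a median of -0.43. Of all 6981 genes in this range, 12.4% were called lower and 8.58% higher, with a median log2 fold change of -0.03. Among 25 members between 1 and 10 CPM, 2 were called lower and 5 higher, with a median log2 fold change of 0.38. Of all 6298 genes in that range, 2.19% were called lower and 6.32% higher, with a median of 0.06. Of 27 members under 1 CPM, Kcna6 was the one called, against 1.35% of all 4903 genes in that range, so this count was near the background.

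Cardiomyocyte markers moved with the lower members: summed over the 6 markers, their level fell by 0.58 on the log2 scale in MI, and it fell by 0.35 without Myh6, a myosin heavy chain of rat ventricle. On the scale of counts relative to the 6 summed markers, the 12 lower members had differences between MI and Sham from -0.24 to 0.22 (median 0.04, log2), 9 of them above 0, and the groups overlapped at all 12. Relative to the 5 markers other than Myh6, all 12 stayed lower, from -0.48 to -0.02 (median -0.19), and the groups did not overlap at 3 of them. Those 3 were Kcnj3 (-0.48), Kcnk2 (-0.36) and Kcnip2 (-0.20), each at the smallest p that 4 rats against 4 allow (two-sided exact permutation test, p = 0.0286). The 12 members were picked because the same rats had called them lower, and these p-values are not adjusted. For that reason no conclusion is drawn from them. The relative scales were also chosen after the values had been seen.

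**Figure D2:**
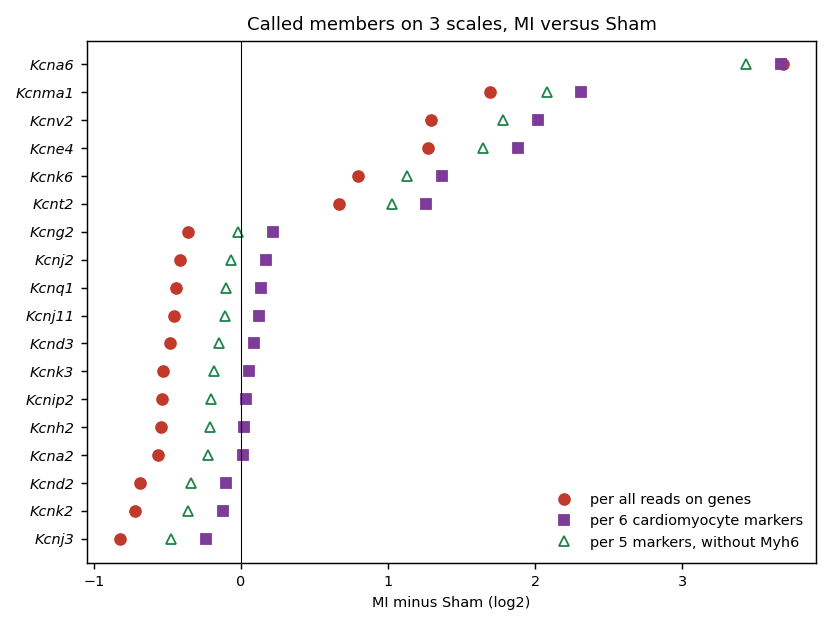
Difference between MI and Sham (x axis, log2) for the 18 called members (rows) on 3 scales. Circles are edgeR log2 fold changes per reads on genes, squares are mean differences relative to 6 summed cardiomyocyte markers and triangles relative to 5 without Myh6. For the 12 lower members the squares run from -0.24 to 0.22, 9 of them above 0, while the triangles run from -0.48 to -0.02. Squares and triangles of the 6 higher members lie right of 0 by construction, since these were called higher and the markers were lower in MI.

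The fast transient outward current of rat ventricle is carried by pores encoded by Kcnd2 and Kcnd3 with KChIP2, the accessory calcium-binding subunit encoded by Kcnip2. These 3 genes were lower in MI, whereas Kcna6 and Kcnv2, a voltage-gated pore and a silent voltage-gated subunit, were higher. The 250 bases before the annotated start of each of the 5 genes are shown because these members moved together within each set. They are from RefSeq on build GRCr8, which is not the build of the counts, and read 5′ to 3′ on the strand of the gene. Capitals mark the GC box, searched as GGGCGG and, for the other strand, CCGCCC.
Kcnip2, chr1:254613899-254614148, minus strand: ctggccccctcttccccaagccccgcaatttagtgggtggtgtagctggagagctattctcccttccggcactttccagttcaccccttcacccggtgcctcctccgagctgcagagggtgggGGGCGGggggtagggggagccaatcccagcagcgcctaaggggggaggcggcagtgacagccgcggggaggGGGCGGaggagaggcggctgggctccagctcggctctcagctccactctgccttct
Kcnd3, chr2:195626066-195626315, plus strand: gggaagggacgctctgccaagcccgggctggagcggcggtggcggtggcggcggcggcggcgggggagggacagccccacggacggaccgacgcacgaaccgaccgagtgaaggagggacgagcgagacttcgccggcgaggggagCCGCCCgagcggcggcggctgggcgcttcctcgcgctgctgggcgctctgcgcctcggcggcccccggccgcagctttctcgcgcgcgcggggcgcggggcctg
Kcnd2, chr4:50742235-50742484, plus strand: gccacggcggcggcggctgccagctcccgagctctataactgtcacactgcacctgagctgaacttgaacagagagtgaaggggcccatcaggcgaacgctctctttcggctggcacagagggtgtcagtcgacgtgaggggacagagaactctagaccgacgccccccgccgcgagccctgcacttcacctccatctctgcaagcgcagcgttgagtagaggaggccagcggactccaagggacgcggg
Kcna6, chr4:161262353-161262602, minus strand: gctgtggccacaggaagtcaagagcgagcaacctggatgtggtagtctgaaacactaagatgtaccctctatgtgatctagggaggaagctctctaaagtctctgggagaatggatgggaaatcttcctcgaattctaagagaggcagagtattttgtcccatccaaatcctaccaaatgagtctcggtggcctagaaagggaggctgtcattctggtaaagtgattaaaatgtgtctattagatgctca
Kcnv2, chr1:234412924-234413173, plus strand: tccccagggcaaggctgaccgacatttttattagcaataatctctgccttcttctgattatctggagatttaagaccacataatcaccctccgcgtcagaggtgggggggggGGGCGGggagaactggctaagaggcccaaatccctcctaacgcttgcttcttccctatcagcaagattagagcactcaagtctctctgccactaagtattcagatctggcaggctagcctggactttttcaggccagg
There were 2 GC boxes before Kcnip2, 1 before Kcnd3 and 1 before Kcnv2, and these letters were not in the windows of Kcnd2 and Kcna6. Of 67 promoters that RefSeq gives for 61 of the 89 members, 47.8% held a GC box, against 30.5% of all 33469 promoters. A TATA box (TATAAA or, for the other strand, TTTATA) was in 2.99% of the members' promoters and in 12.9% of all promoters. The share of G and C was 68.0% before Kcnip2, 79.6% before Kcnd3, 64% before Kcnd2, 45.6% before Kcna6 and 51.6% before Kcnv2. Its median was 51.2% over all promoters and 60.8% over the members' promoters. Promoters of members called lower in MI had a median of 67% (42% to 79.6%), and those called higher 52.4% (45.6% to 79.6%). A GC box was in 5 of 8 promoters of members called lower (62.5%) and in 4 of 5 of those called higher (80%). Such matches describe letters and are not binding sites.

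Levels of Kcnip2 (ENSRNOG00000018018) were 428.9, 468.8, 476.5 and 481 CPM in the Sham rats, 269.7, 298, 338 and 372 CPM in the MI rats, and 257, 359.8, 367 and 371 CPM in the MI + UA rats. Every MI rat lay under every Sham rat, with means of 464 ± 23.9 CPM in Sham and 319 ± 44.9 CPM in MI (SD, n = 4 each), and the log2 fold change was -0.54 (standard error 0.11, edgeR adjusted p = 0.00273). Kcnd3 (ENSRNOG00000014686) had 29.3 to 34.5 CPM in the 4 Sham rats and 18.5 to 25.6 CPM in the 4 MI rats. These groups did not overlap either, and the log2 fold change was -0.48 (standard error 0.11, adjusted p = 0.00514). Kcnd2 (ENSRNOG00000067416) had 9.26, 10.5, 11.7 and 13.7 CPM in Sham and 4.73, 6.75, 6.80 and 10.7 CPM in MI. One MI rat reached into the Sham range, and the log2 fold change of Kcnd2 was -0.69 (standard error 0.22, adjusted p = 0.0488), a call that was lost in 7 of 8 fits that left out 1 rat of these groups and with rat 66 counted in MI. RefSeq places 6 other genes across Kcnd2, among them Kcnd2l1, so reads there may be shared. Kcna4, which encodes the pore of the slow transient outward current, had 33.2 ± 4.68 CPM in Sham and 26.6 ± 4.85 CPM in MI (SD, n = 4 each), a log2 fold change of -0.33 that was not called (adjusted p = 0.106).

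Of the delayed rectifier genes, Kcna2 was called lower in MI and Kcna5 was not called. Kcna2, a Shaker-type pore, had 37.8, 37.9, 39.3 and 46.9 CPM in Sham and 22.5, 27.6, 28.1 and 31.0 CPM in MI. All MI rats were lower, and the log2 fold change was -0.56 (standard error 0.15, adjusted p = 0.0162). The call was lost with rat 66 counted in MI (adjusted p = 0.164). Kcna5, the pore of the ultrarapid current, had 3.90 to 9.26 CPM in Sham and 5.92 to 15.7 CPM in MI, overlapping ranges with a log2 fold change of 0.57 (adjusted p = 0.206).

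Silent subunits do not conduct on their own but join other voltage-gated pores, and those encoded by Kcng2 and Kcnv2 went opposite ways. Kcng2 had 52.3 to 61.8 CPM in Sham and 38.5 to 51.0 CPM in MI, without overlap (log2 fold change -0.36, standard error 0.11, adjusted p = 0.0425). Kcnv2 (ENSRNOG00000012566) had 1.67, 1.68, 3.64 and 5.05 CPM in Sham, 6.54, 7.01, 7.90 and 8.31 CPM in MI, and 5.83, 6.90, 8.16 and 8.73 CPM in MI + UA. Each infarcted rat exceeded each Sham rat, and the log2 fold change in MI versus Sham was 1.29 (standard error 0.26, adjusted p = 0.00235). RefSeq places Pum3 across Kcnv2, and reads of the 2 genes may be shared. In all, 10 of the 18 called members overlap another RefSeq gene, and for Kcnk2 and Kcnk6, as for Kcnd2 and Kcnv2, a protein-coding one. The others are Kcnd3, Kcng2, Kcnk3, Kcnma1, Kcnq1 and Kcnt2. Levels of Kcng2 relative to the 6 cardiomyocyte markers were higher in MI by 0.22 on the log2 scale, with overlap.

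Kcnh2 and Kcnq1 encode the pores of the rapid and slow delayed rectifiers, which are small in adult rat ventricle. Kcnh2 had 19.5, 19.7, 20.6 and 20.9 CPM in Sham and 12.2, 12.6, 14 and 16.2 CPM in MI. The groups stood apart, and the log2 fold change was -0.54 (standard error 0.14, adjusted p = 0.0120). Kcnq1 had 40.4 to 44.1 CPM in Sham and 27.2 to 35.4 CPM in MI, also apart (log2 fold change -0.44, standard error 0.12, adjusted p = 0.0210). Kcne1, the accessory subunit of Kcnq1, rested on few reads, 8 in Sham and 51 in MI. Its levels were 0, 0.125, 0.238 and 0.722 CPM in Sham and 0.244, 0.830, 1.61 and 2.82 CPM in MI. They overlapped, and the log2 fold change of 2.18 (standard error 0.80) was not called by edgeR (adjusted p = 0.0890) but was called by DESeq2 (adjusted p = 0.0403).

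Kcna6 (ENSRNOG00000052486), a Shaker-type pore known mainly from nervous tissue, had the largest fold change of any called member. The Sham rats had 0, 1, 1 and 1 reads, the MI rats 4, 12, 21 and 27, and the MI + UA rats 9, 11, 16 and 29. Every infarcted rat was above every Sham rat. In CPM the means were 0.0973 ± 0.0657 in Sham, 1.40 ± 0.653 in MI and 1.30 ± 0.320 in MI + UA (SD, n = 4 each). The fitted log2 fold change in MI versus Sham was 3.69 (standard error 0.62, adjusted p = 0.000483). With only 3 reads in Sham its size is uncertain: the ratio of summed reads per library size was 14.9, with an exact 95% interval of 4.86 to 73.9 that covers counting error only. Schwann cell markers had a summed level of 14.5 to 17.3 CPM in Sham, 16.9 to 26.9 CPM in MI and 20.1 to 62.3 CPM in MI + UA, and their part in this difference was not tested.

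Of the 10 auxiliary genes tested, Kcnip2 was called lower and Kcne4 higher, against 5.53% and 5.82% of all genes tested. Kcne4, an inhibitory subunit of voltage-gated channels, had 0.866, 0.878, 1.85 and 2.15 CPM in Sham and 2.41, 3.18, 3.29 and 5.19 CPM in MI. The groups did not overlap (log2 fold change 1.27, standard error 0.35, adjusted p = 0.0214), and the call was lost in 3 of 8 fits that left out 1 rat of these groups. Kcnab1, a beta subunit of Shaker-type channels, had 12.3 ± 1.07 CPM in Sham and 17 ± 7.37 CPM in MI (SD, n = 4 each; log2 fold change 0.44, adjusted p = 0.223). Kcne2, which can join Kcnh2, had 0.238 to 0.866 CPM in Sham and 0.470 to 1.06 CPM in MI (log2 fold change 0.96, adjusted p = 0.301).

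**Figure D3:**
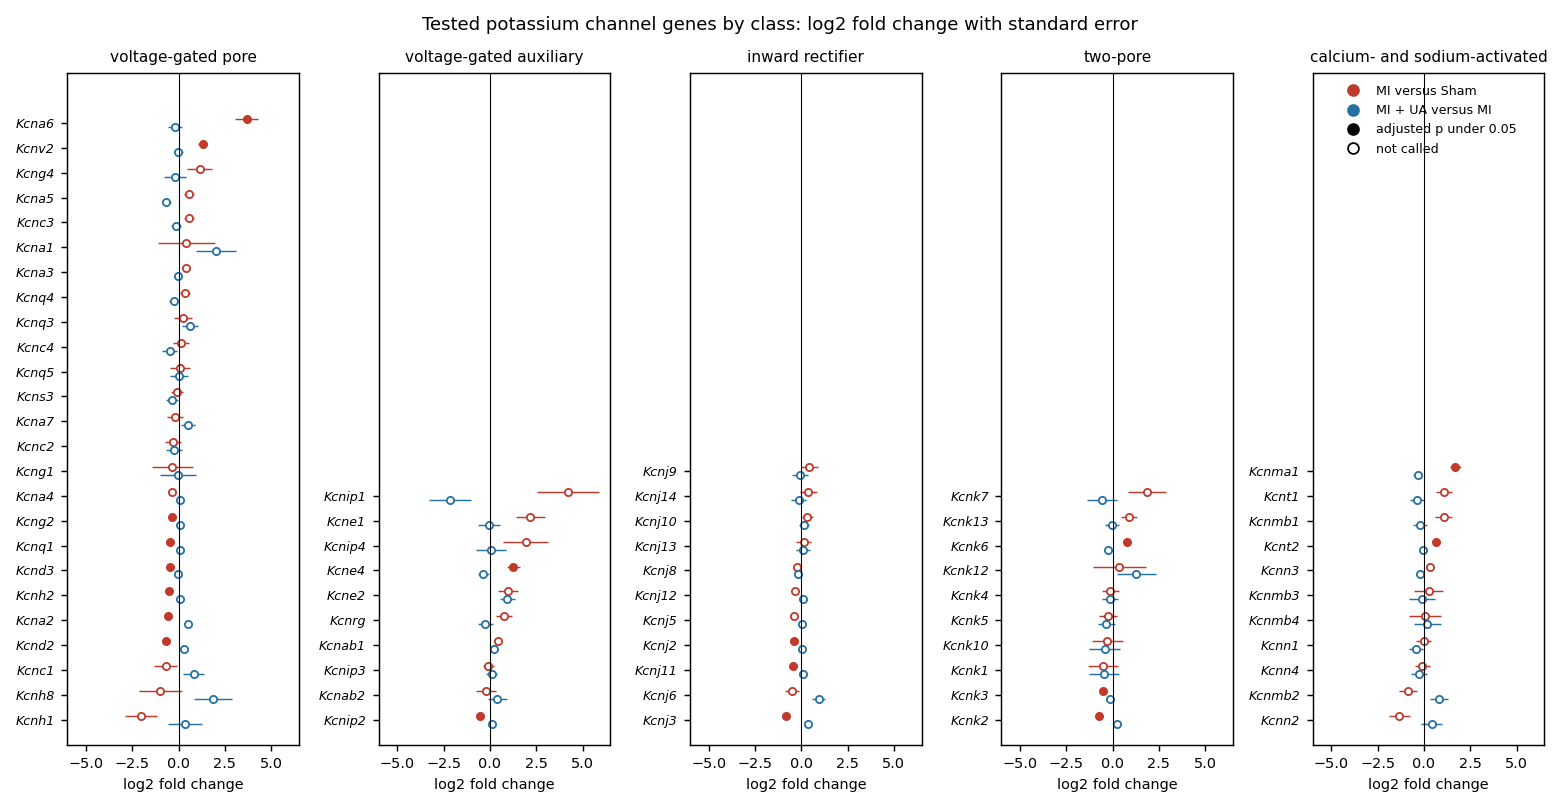
Log2 fold changes (x axes) with standard errors of tested members by class, ordered by MI versus Sham (red), with MI + UA versus MI in blue. Filled circles have an adjusted p under 0.05 in edgeR's test. In MI versus Sham 12 filled circles lie to the left and 6 to the right (relative to the 6 summed cardiomyocyte markers 9 of those 12 turn right, and relative to the 5 without Myh6 none does), and no blue circle is filled.

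Inward rectifier genes had 3 of 11 tested members called lower in MI and none called higher, against 5.53% and 5.82% of all genes tested. Their median log2 fold change was -0.36, and that of the 6 cardiomyocyte markers was -0.40. Kcnj3 (ENSRNOG00000005369), a pore of the muscarinic channel that acetylcholine opens, had the smallest p of all members. Its levels were 79.6, 83.9, 86.5 and 89.3 CPM in Sham, 44.5, 47.4, 48.0 and 52.1 CPM in MI, and 48.5, 54.9, 64.3 and 79.1 CPM in MI + UA. The MI rats were far under the Sham rats (log2 fold change -0.82, standard error 0.12, adjusted p = 8.77e-05), while the MI + UA rats spread from the MI range to just under the Sham range. Kcnj5, its partner pore, had 18.5 to 25.8 CPM in Sham and 13.6 to 18.0 CPM in MI. The Kcnj5 ranges did not overlap, yet the log2 fold change of -0.38 was not called (adjusted p = 0.115). Muscarinic channels are known best from the atria, and the 4 atrial markers Myl4, Myl7, Sln and Bmp10 had a summed level of 3.46 to 4.89 CPM in Sham, 2.85 to 13.2 CPM in MI and 3.47 to 6.25 CPM in MI + UA, none of them called.

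Kcnj2, the main pore of the classical inward rectifier current, had 63.9, 78.4, 90.6 and 91.1 CPM in Sham and 51.1, 58.7, 64.2 and 68.1 CPM in MI. The lowest Sham rat lay within the MI range, and the log2 fold change was -0.41 (standard error 0.11, adjusted p = 0.0176). Kcnj12, a second pore of this current, had 15.1 ± 4.05 CPM in Sham and 11.7 ± 0.784 CPM in MI (SD, n = 4 each; log2 fold change -0.36, adjusted p = 0.168). Kcnj4, a further one, had 0 reads in any rat. Kcnj11, the pore of ventricular ATP-sensitive channels, had 47.4, 56.6, 57.7 and 58.9 CPM in Sham and 35.4, 39.5, 42.7 and 43.1 CPM in MI. All MI rats were lower (log2 fold change -0.46, standard error 0.12, adjusted p = 0.0179). Kcnj8, the pore of the vascular type, had 23.0 ± 1.98 CPM in Sham and 19.7 ± 2.14 CPM in MI (SD, n = 4 each; log2 fold change -0.22, adjusted p = 0.244).

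Two-pore genes had 2 of 10 tested members called lower and 1 called higher, against 5.53% and 5.82% of all genes tested. Kcnk2, which encodes the stretch-sensitive channel TREK-1, had 8.08, 8.91, 11.1 and 11.3 CPM in Sham, 5.30, 6.12, 6.21 and 6.33 CPM in MI, and 6.09, 6.81, 7.03 and 8.27 CPM in MI + UA. Sham and MI did not overlap (log2 fold change -0.72, standard error 0.16, adjusted p = 0.00472). Kcnk3, which encodes the acid-sensitive channel TASK-1, had 32.2 to 44.1 CPM in Sham and 22.8 to 30.1 CPM in MI, also apart (log2 fold change -0.53, standard error 0.14, adjusted p = 0.0189). Kcnk6, which encodes a weak inward rectifier of the two-pore family, had 2.89, 5.01, 5.20 and 6.57 CPM in Sham and 5.96, 8.31, 9.21 and 9.76 CPM in MI. One MI rat lay within the Sham range, and the log2 fold change was 0.80 (standard error 0.21, adjusted p = 0.0152). Macrophage markers summed to 63.9 to 79.3 CPM in Sham and 110.5 to 149.8 CPM in MI, without overlap, and their part in this rise was not tested. Kcnk1 had between 0 and 1.30 CPM over all rats and was not called (adjusted p = 0.779).

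Calcium- and sodium-activated genes had 2 of 11 tested members called higher and none called lower, against 5.82% and 5.53% of all genes tested. Their median log2 fold change was 0.26. Kcnma1 (ENSRNOG00000005985), the pore of the large-conductance calcium-activated channel, had 0.596, 1.00, 1.85 and 2.02 CPM in Sham, 3.67, 4.05, 4.39 and 5.04 CPM in MI, and 2.71, 2.87, 3.60 and 4.29 CPM in MI + UA. Every infarcted rat was above every Sham rat, and the log2 fold change in MI versus Sham was 1.69 (standard error 0.31, adjusted p = 0.000897). Kcnmb1, its smooth muscle subunit, had 0.596 to 1.76 CPM in Sham and 1.10 to 3.36 CPM in MI (log2 fold change 1.06, adjusted p = 0.140). Mural cell markers (7 genes, 4 called higher) summed to 585 to 604 CPM in Sham and 593 to 744 CPM in MI, fibroblast markers (7 genes, 5 called higher) summed to 952 to 1243 CPM in Sham and 1834 to 3028 CPM in MI, and the part of either in the rise of Kcnma1 was not tested. Kcnt2, which encodes a sodium-activated channel, had 3.58, 4.04, 5.90 and 6.06 CPM in Sham and 6.60, 7.06, 8.12 and 9.24 CPM in MI. These ranges stood apart (log2 fold change 0.66, standard error 0.19, adjusted p = 0.0244). The small-conductance genes Kcnn1, Kcnn2 and Kcnn3 were not called. Kcnn2 had 1.20 ± 0.526 CPM in Sham and 0.438 ± 0.335 CPM in MI (SD, n = 4 each; log2 fold change -1.33, adjusted p = 0.137), and Kcnn3 had 5.58 ± 1.33 and 6.88 ± 0.627 CPM (log2 fold change 0.31, adjusted p = 0.383).

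The 21 members under 10 reads in total held 0 to 9 reads over the 12 rats. Of these, 6 had no read: Kcna10, Kcnf1, Kcnh6, Kcnh7, Kcnj4 and Kcnk9. A count of 0 among 121502354 reads on genes allows up to 3 reads, or 0.0247 CPM without TMM scaling. Whether these members differ between groups was not detectable at this depth.

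In MI + UA versus MI, 0 of the 68 tested members were called by edgeR and 0 by DESeq2, against 0% of all genes tested in edgeR's fit. At an unadjusted p under 0.05 there were 5 members (7.35%), against 3.79% of all genes. MI and MI + UA rats overlapped at all 68 members, against 2.34% of all genes without overlap. This comparison shares the MI rats with the comparison above, so a low or high value of those rats enters both with opposite sign.

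The 5 members with unadjusted p under 0.05 were Kcna2, Kcnj3, Kcnj6, Kcna5 and Kcne2, each with an adjusted p of 1.00 in edgeR's test. Kcna2 had 24.5, 41.5, 44.1 and 44.7 CPM in MI + UA and 22.5, 27.6, 28.1 and 31.0 CPM in MI. Of the treated rats, 3 lay above all MI rats and rat 58 lay within their range, and the log2 fold change was 0.51 (standard error 0.15, unadjusted p = 0.00217). Without rat 58 the log2 fold change of Kcna2 was 0.67 (edgeR adjusted p = 0.107), and with rat 66 counted in MI it was 0.26 (unadjusted p = 0.154). Kcnj3 had the values given above, and its log2 fold change was 0.37 (standard error 0.11, unadjusted p = 0.00379), 3 of 4 treated rats above all MI rats. With rat 66 counted in MI this log2 fold change was 0.04 (unadjusted p = 0.765), and without rat 66 it was 0.23 (unadjusted p = 0.0320).

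Kcnj6, a further pore of the muscarinic channel family, had 4.37, 4.39, 7.17 and 10.5 CPM in MI + UA and 1.30, 2.59, 4.46 and 6.27 CPM in MI (log2 fold change 0.93, standard error 0.36, unadjusted p = 0.0171). Kcna5 had 5.55, 5.57, 7.26 and 10.1 CPM in MI + UA and 5.92, 11.7, 12.1 and 15.7 CPM in MI (log2 fold change -0.66, standard error 0.26, unadjusted p = 0.0201). Counting rat 66 in MI moved Kcna5 to a log2 fold change of -0.37 (unadjusted p = 0.237). The ranges overlapped for both genes, and without rat 29 the log2 fold change of Kcnj6 was 0.57 (unadjusted p = 0.140). With rat 66 counted in MI that of Kcnj6 was 1.03 (unadjusted p = 0.00640). Kcne2 had 0.957, 1.26, 1.76 and 2.70 CPM in MI + UA and 0.470, 0.804, 0.830 and 1.06 CPM in MI (log2 fold change 0.94, standard error 0.42, unadjusted p = 0.0371). Only the lowest treated rat reached into the MI range of Kcne2, and without rat 58 the log2 fold change of Kcne2 was 0.63 (unadjusted p = 0.164). With rat 66 counted in MI that of Kcne2 was 1.10 (unadjusted p = 0.0115).

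**Figure D4:**
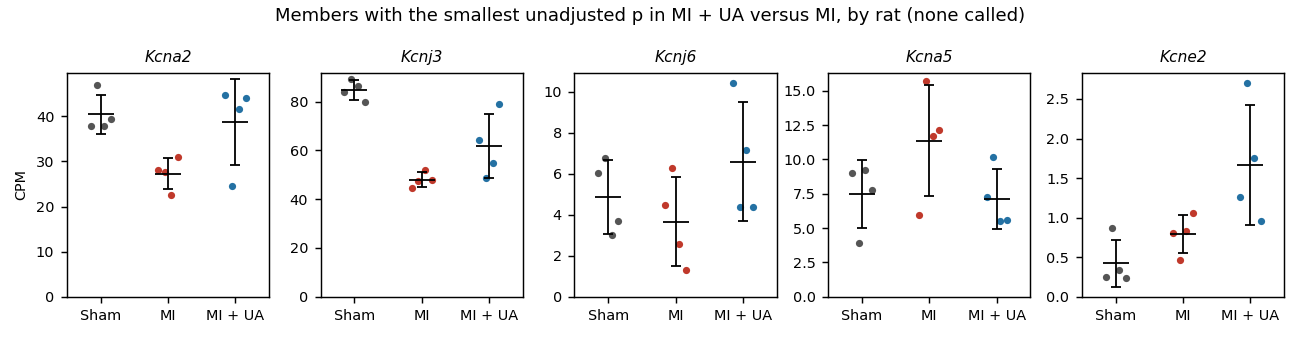
Levels (CPM, y axes from 0) in each rat of the 5 members with unadjusted p under 0.05 in MI + UA versus MI, none of them called after adjustment. Points are rats, and the mark and bar give the mean and SD of 4 rats. MI and MI + UA overlap in each panel, and rat 58 is the low MI + UA point of Kcna2 at 24.5 CPM.

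Rat 58 had the lowest level of the MI + UA rats at 10 of the 12 members called lower in MI. For Kcnip2 it had 257 CPM, against 359.8 to 371 CPM in the other 3, and for Kcnq1 23.6 CPM against 34.9 to 36.5 CPM. Its summed cardiomyocyte markers were 10348 CPM, against 10680.5 to 12540.6 CPM in the others, and its share of reads on genes, 42.9%, was the lowest of the 12 libraries. Their part in the low values of rat 58 was not tested.

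In MI + UA versus Sham, 15 of 68 members (22.1%) were called, against 9.44% of all genes tested, with the Sham rats shared with MI versus Sham. Of these, 9 were lower (13.2%, against 4.27%) and 6 higher (8.82%, against 5.16%). In the same comparison 5 of 6 cardiomyocyte markers and 1 of 5 endothelial markers were called lower. Called higher were 5 of 7 fibroblast, 6 of 7 macrophage, 1 of 7 mural and 3 of 4 Schwann cell markers. The part of these cells in the members' differences was not tested. MI + UA and Sham rats did not overlap at 16 members (23.5%), against 14.3% of all genes. Among the lower potassium channel members were Kcnip2 (log2 fold change -0.45), Kcnd3 (-0.49), Kcnh2 (-0.45), Kcnj2 (-0.37), Kcnj3 (-0.45), Kcnj8 (-0.40), Kcnj11 (-0.39) and Kcnk3 (-0.69). The higher members were Kcna6 (3.51), Kcnv2 (1.28), Kcnab1 (0.68), Kcne2 (1.91), Kcnma1 (1.36) and Kcnt2 (0.63). For Kcne2 the MI + UA rats had a mean of 1.67 ± 0.762 CPM and the Sham rats 0.423 ± 0.299 CPM (SD, n = 4 each), without overlap (adjusted p = 0.0187). Kcna2 had means of 38.7 ± 9.56 CPM in MI + UA and 40.5 ± 4.35 CPM in Sham (log2 fold change -0.05, standard error 0.15, adjusted p = 0.889). Calls of Kcna6, Kcnv2, Kcnma1, Kcnip2, Kcnd3 and Kcnk3 held under all 19 other settings. With 1 rat of these groups left out, the call of Kcnab1 held in 1 of 8 fits, those of Kcnh2, Kcnj2 and Kcnj11 in 2, those of Kcnt2 and Kcnj8 in 3, that of Kcne2 in 4 and that of Kcnj3 in 7. With rat 66 counted in MI the calls of Kcnab1 (edgeR adjusted p = 0.164), Kcnh2 (0.0930), Kcnj2 (0.0848) and Kcnj11 (0.0566) were lost. Without rat 32 or rat 38 of Sham the count fell to 7 members, and without rat 29 or rat 58 of MI + UA it fell to 9.

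Ratios between genes that share a channel were compared within each library, where library size cancels. In MI versus Sham the mean log2 ratio of Kcnip2 to the sum of Kcnd2 and Kcnd3 was 3.43 ± 0.04 in MI and 3.45 ± 0.15 in Sham (SD, n = 4 each), a difference of -0.01 (two-sided exact permutation test, p = 0.914). The difference in the log2 ratio of Kcnd2 to Kcnd3 was -0.19 (exact p = 0.514), that of Kcnj2 to Kcnj12 was -0.08 (exact p = 0.629) and that of Kcnj11 to Kcnj8 was -0.23 (exact p = 0.171). In MI + UA versus MI the differences were 0.03, 0.23, -0.02 and 0.21 in the same order (exact p = 0.743, 0.514, 0.943 and 0.457). None of the 8 tests passed 0.05, and each had a Benjamini-Hochberg adjusted p of 0.943. Groups overlapped in all 8, and with 4 rats a group the smallest p possible is 0.0286. The log2 ratio of Kcnj11 to Kcnj8 had an SD of 0.28 in MI, 0.43 in MI + UA and 0.06 in Sham, and this spread was not tested. In MI + UA rat 58 had 0.61 and the other rats 1.30 to 1.57. In MI rat 89 had 0.67 and the other rats 0.96 to 1.32.

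**Figure D5:**
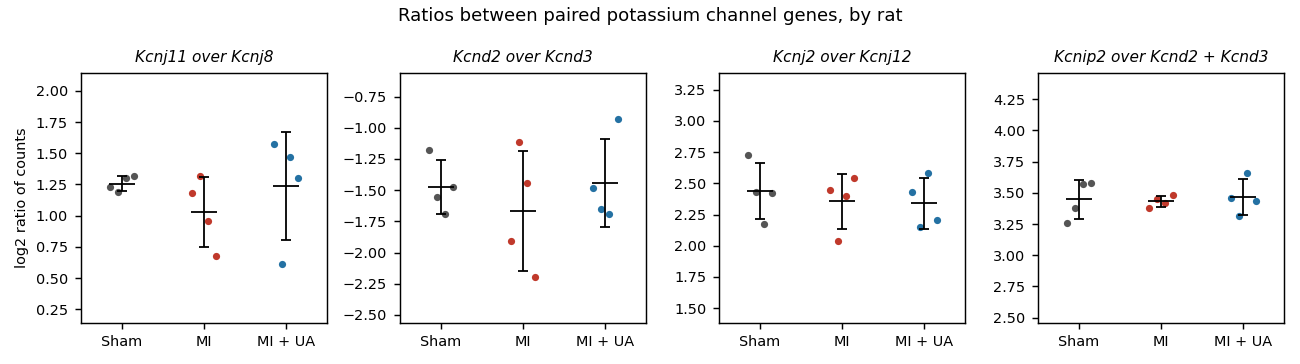
Log2 ratios of counts (y axes, each spanning 2 log2 units) between genes that share a channel, by rat, with the mean and SD of 4 rats. The 3 groups overlap in every panel, and the 4 MI rats lie closest together for Kcnip2 over Kcnd2 plus Kcnd3 (SD 0.04).

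Partner genes encode proteins that assemble with potassium channels or regulate them, and 11 of 16 listed were tested. In MI versus Sham, 2 of the 11 were called lower and none higher, against 5.53% and 5.82% of all genes tested. All 11 log2 fold changes were negative (median -0.30). The 6 cardiomyocyte markers had a median of -0.40, and their part in the lower partner levels was not tested. Akap9, the scaffold of Kcnq1 channels, had a log2 fold change of -0.36 (adjusted p = 0.0120), and Nedd4l, a ubiquitin ligase of ion channels, had one of -0.38 (adjusted p = 0.0111). Abcc9 and Abcc8, the sulfonylurea receptors of ATP-sensitive channels, had log2 fold changes of -0.14 (adjusted p = 0.246) and -0.35 (adjusted p = 0.186). Irx5, a transcription factor that represses Kcnd2 across the ventricular wall, and the related Irx3 had log2 fold changes of -0.17 and -0.24 (adjusted p = 0.771 and 0.591). Dpp6 and Dpp10, further subunits of the transient outward channel, held 9 and 0 reads in all and were not tested. In MI + UA versus MI no partner gene was called.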

How the data were processed

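RNA from the left ventricle of 12 rats (4 Sham, 4 MI, 4 MI + UA) was sequenced by the authors as rRNA-depleted, strand-specific, paired-end libraries, although the labels give the molecule as polyA RNA. The deposited values are raw counts of reads per gene, which the authors made with STAR 2.6.1c and HTSeq on mRatBN7.2, per the submitters' processing notes, and the strand setting of the counting is not given in the sources used here. A further MI + UA library that the study left out as an outlier was not analysed here.

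The 5 summary rows that name no gene were left out, and 7162 of 30560 genes carry no symbol and could not be matched by name. Genes with at least 10 reads in total were fitted with edgeR 4.0.16 (R 4.3.3) by its quasi-likelihood test on TMM-scaled counts of all 3 groups, with no covariates and Benjamini-Hochberg adjustment over all 18182 genes. A gene was called at an adjusted p under 0.05. Ratios of counts (0.5 added to each gene) were compared by exact permutation tests (scipy 1.17.1). The fit was first tested on simulated data. Depth was 6228706 to 19031695 reads on genes, and intervals and the limit at 0 reads (3 counts) cover counting error only. Each library is 1 rat, so p-values measure the spread between rats.

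Named genes were the members called in any comparison, a list of 26 genes of cardiac potassium currents, and the 5 members with the smallest unadjusted p in MI + UA versus MI. The members, the lists and the markers were chosen with earlier results of these data known. Alternatives were DESeq2 1.42.0, fits of 2 groups, other filters and scalings, rat 66 counted in MI and each rat left out. Scaling to cardiomyocyte markers was added after seeing the data. Values of 1 tested member, which enters the counts, are not reported here.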

Additional observations from a re-analysis of the deposited data

Results flagged for a closer look

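In 5 of 111 groups of 4 rats examined, 1 rat stood apart from the other 3. The ratio of its gap to the group's range was above Dixon's 95% critical value, where chance gives about 1 in 20 groups, or 5.5. Groups were examined on the scale of log2 CPM or of the log2 ratios between genes. Rat 58 was the low rat of MI + UA for Kcnip2 (ratio 0.917, 257 CPM against 359.8 to 371 CPM), Kcnq1 (ratio 0.897, 23.6 CPM against 34.9 to 36.5 CPM) and Kcna2 (ratio 0.879, 24.5 CPM against 41.5 to 44.7 CPM). Rat 66 was the low rat of MI + UA for Kcnk6 (ratio 0.922, 6.08 CPM against 7.45 to 7.58 CPM). Rat 32 was the low rat of Sham for Kcna6 (ratio 0.879), with 0 reads where the other 3 had 1 read each.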

How the results depend on the processing

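No paired analysis was possible because each rat belongs to a single group. The count of members called in MI versus Sham was 18, and it was 17 to 19 under the 7 settings that kept all rats (19 with DESeq2, 17 with rat 66 counted in MI) and 9 to 18 with 1 rat left out. In MI + UA versus Sham the count of 15 became 11 with rat 66 counted in MI, 13 to 16 under the other 6, and 7 to 15 with 1 rat left out. In MI + UA versus MI it stayed at 0 under all 19. Under the settings that kept all rats some log2 fold changes of MI + UA versus MI changed sign, among them Kcnd2 (-0.14 to 0.29) and Kcnab1 (-0.0352 to 0.25). Relative to the 6 summed cardiomyocyte markers, 9 members called lower in MI turned the other way: Kcna2 (0.0118), Kcnd3 (0.0871), Kcng2 (0.22), Kcnh2 (0.0220), Kcnip2 (0.0340), Kcnj11 (0.13), Kcnj2 (0.17), Kcnk3 (0.0541) and Kcnq1 (0.13). The sum of the 6 markers fell by 0.58 (log2) in MI, and by 0.35 without Myh6, whose own log2 fold change was -1.08. Relative to the 5 markers without Myh6, all 12 stayed lower (median -0.19). Among members not called, Kcnk1 ran from -0.96 to 0.74 and Kcnn1 from -0.22 to 0.37 with 1 rat left out, and Kcnn1 was 0.0011 with edgeR's own filter. With rat 66 counted in MI, the MI + UA versus MI difference of Kcnd2 over Kcnd3 turned to -0.0915 and that of Kcnj2 over Kcnj12 to 0.0609, and the cause was not tested. With 1 rat left out, differences in MI versus Sham ran from -0.17 to 0.0256 for Kcnj2 over Kcnj12 and from -0.0753 to 0.0305 for Kcnip2 over Kcnd2 plus Kcnd3, and in MI + UA versus MI from -0.12 to 0.0487 and from -0.0304 to 0.0825. Members under 10 reads could not be compared at this depth.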
